A study of Mus musculus with 12 samples.

Results

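Myc, Mycn and Mycl encode the MYC family of transcription factors, and Pvt1 encodes a long noncoding RNA from the gene that follows Myc on the chromosome. The 4 genes were chosen by their symbols and were found in every table, among 27776 genes in the transient table and 27590 in each stable-line table. Their RNA was measured in 12 libraries, 6 groups of 2, of mouse embryonic stem cells grown with serum, leukemia inhibitory factor and 2i, which is the GSK3 inhibitor CHIR99021 with the MEK inhibitor PD0325901. In the transient set, mDUX cells expressed a codon-altered mouse Dux transgene, mDuxCA, without an HA tag for 24 h, beside control cells. The labels give mDuxCA as the transgene of the controls too, so the transient groups follow the sample titles. All stable-line groups carried mDuxCA with a 3xHA tag and were kept under puromycin and G418, so the uninduced cells hold the transgene as well. Unsorted stable cells had 24 h of doxycycline or none. Sorted stable cells had 24 h of doxycycline and were separated into GFP-positive and GFP-negative cells, GFP being the reporter of the endogenous retrovirus MERVL. No group had doxycycline without the transgene. The labels do not tell whether libraries A and B of a group were separate cultures, and p-values therefore reflect only how far these libraries differ, a spread that may be technical.

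MYC proteins pair with MAX through a basic helix-loop-helix zipper and bind E-box DNA, where they raise genes of ribosome production, nucleotide synthesis and growth. MXD, MNT and MGA proteins compete for MAX. In mouse embryonic stem cells, Myc and Mycn are both expressed and serve self-renewal, and LIF-STAT3 and WNT signalling act upstream of Myc. Mycn is the family member best known from embryonic and neural progenitors, and Mycl from lung tumours and dendritic cells. Pvt1 is best known from human cancers, where it is often amplified together with MYC.

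The genes lie at 3 loci (GENCODE annotation of GRCm38, the assembly called mm10). Myc (ENSMUSG00000022346) lies on the plus strand of chr15:61985391-61990374. Pvt1 (ENSMUSG00000097039), annotated as a long intergenic noncoding RNA, spans 340111 bp of the same strand at chr15:62037986-62378096 and starts 47611 bp after the end of Myc. Mycn (ENSMUSG00000037169) lies on the minus strand of chr12:12936093-12941914, and Mycl (ENSMUSG00000028654) on the plus strand of chr4:122995652-123002485. No source used here gives the strand setting of the counting, so reads of a gene and of an antisense partner cannot be told apart.

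Promoter sequences are shown for Mycn and Mycl only, because the RefSeq promoter set used here held no entry for Myc or Pvt1. Each line gives the 250 bases before the gene's start in RefSeq (GRCm38.p6), on the gene's own strand, with the GC box GGGCGG or its complement in capitals. The GENCODE start lies 78 bp further upstream for Mycn and 279 bp further upstream for Mycl.
Mycn, chr12:12941837-12942086, minus strand: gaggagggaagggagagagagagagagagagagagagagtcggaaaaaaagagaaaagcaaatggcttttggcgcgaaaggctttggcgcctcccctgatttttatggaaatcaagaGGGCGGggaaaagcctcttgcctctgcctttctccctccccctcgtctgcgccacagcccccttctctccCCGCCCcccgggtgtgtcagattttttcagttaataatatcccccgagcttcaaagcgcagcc
Mycl, chr4:122995681-122995930, plus strand: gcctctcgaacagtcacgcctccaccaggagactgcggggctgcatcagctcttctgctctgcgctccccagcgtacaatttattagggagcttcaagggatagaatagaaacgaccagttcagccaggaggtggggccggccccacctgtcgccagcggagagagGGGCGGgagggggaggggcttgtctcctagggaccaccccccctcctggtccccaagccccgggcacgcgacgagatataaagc
Motifs were searched on both strands of the 300 bases from 250 before the start to 50 after it. The window of Mycn held 2 GC boxes, whose first bases lie at positions -133 and -63 from the start, and that of Mycl held 1, at -84. A GC box was present in 35.7% of 32851 RefSeq promoter windows of this length. The Mycl window also held TATAAA at -8, found in 13.6% of windows, and the Mycn window held the TCF-LEF core CTTTGA at -13, found in 16.0%. The E-box CACGTG (7.15% of windows), the STAT motif TTCNNNGAA (8.3%) and the paired half-site GATTNAATC (0.268%) had no match in either window. The GC content was 56.7% for Mycn and 64.0% for Mycl, with a median of 52.7% over all windows. These matches describe letters and not bound sites.

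Counted reads ranged over 17914954 to 21988401 for transient libraries, 14365741 to 18388836 for unsorted and 31870748 to 53826590 for sorted libraries. All 12 embryonic stem cell markers had reads in every library, from 84 reads of Utf1 upwards. Together they made up 0.522% to 0.545% of gene reads with doxycycline and 1.04% to 1.05% without it, 0.395% to 0.407% in GFP-positive and 0.692% to 0.696% in GFP-negative cells, and 0.527% to 0.542% with transient mDUX and 0.504% to 0.546% in controls. The summed markers of 2-cell-like cells, the state that Dux genes are known to induce, took 0.105% to 0.11% of gene reads with transient mDUX and 0.01% to 0.0106% in controls. They took 1.11% to 1.14% with doxycycline, 0.00107% to 0.00118% without it, 1.39% to 1.41% in GFP-positive cells and 0.0188% to 0.0203% in GFP-negative cells, and the part of these shifts in the results below was not tested. Summed markers of fibroblasts, primitive endoderm, trophectoderm, neuroectoderm and blood took at most 0.00396%, 0.0239%, 0.00683%, 0.0165% and 0.000521% of gene reads in any library, and these sums moved with the groups too. Fibroblast markers took 0.00374% to 0.00396% with doxycycline and 0.000944% to 0.00116% without it, and 0.00371% to 0.00383% in GFP-positive and 0.00138% to 0.00147% in GFP-negative cells. Primitive endoderm markers took 0.00421% to 0.00452% with doxycycline and 0.00599% to 0.00662% without it, and 0.00745% to 0.0084% in GFP-positive and 0.0218% to 0.0221% in GFP-negative cells. Trophectoderm markers took 0.00297% to 0.00322% with doxycycline and 0.00645% to 0.00668% without it, and 0.00253% to 0.00262% in GFP-positive and 0.00473% to 0.00481% in GFP-negative cells. Neuroectoderm markers took 0.0163% to 0.0165% with doxycycline and 0.0109% to 0.011% without it, and 0.00906% to 0.00911% in GFP-positive and 0.00681% to 0.00713% in GFP-negative cells. Their part in the results was not tested either. The unsorted and sorted libraries stand apart as sets. Mitochondrial genes were at 0.0% of gene reads in all 4 unsorted libraries and at 0.479% to 0.561% in the sorted ones. The tRNA repeat reads were 0.0896% to 0.111% in unsorted and 0.00341% to 0.00627% in sorted libraries.

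The first question is how the family is composed in these cells. Levels of different genes are compared here as CPM per kb of the length given in the tables, CPM being a gene's share of all gene reads, scaled with TMM factors. Mycn was the leading family member in all 12 libraries. Of the summed CPM per kb of Myc, Mycn and Mycl, Mycn made up 64.0% ± 0.636 with transient mDUX and 66.0% ± 1.48 in transient controls (SD, n = 2). In the stable line its share was 81.2% ± 1.20 with doxycycline, 80.4% ± 1.13 without it, 69.9% ± 1.98 in GFP-positive and 72.0% ± 1.41 in GFP-negative cells. Mycl made up 14.5% to 21.1% by group mean, highest with transient mDUX. In relative terms, the share of Myc differed most between the sets. It was 14.8% ± 1.13 with transient mDUX, 14.1% ± 2.62 in transient controls, 2.56% ± 0.354 with doxycycline, 0.683% ± 0.111 without it, 15.6% ± 1.41 in GFP-positive and 11.9% ± 0.990 in GFP-negative cells.

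**Figure D1:**
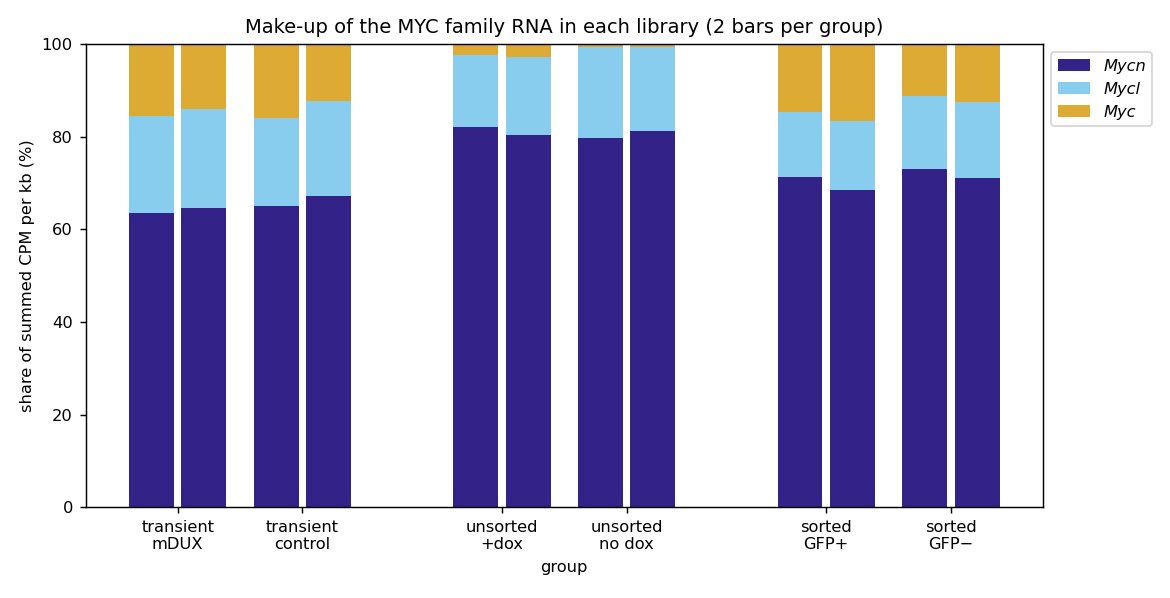
Each bar is 1 library, and its colours divide the summed CPM per kb of Mycn, Mycl and Myc into percent shares, with Mycn at the bottom and Myc on top. Mycn fills most of every bar, and the Myc band is thin in all 4 unsorted libraries.

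The transient comparison asks what mDUX expression does within a day of transient expression. None of the 4 genes passed the test there. The common coefficient of variation between libraries of a group was 11.9% in this fit, against 3.78% in the unsorted and 5.04% in the sorted fit. The transient test was thus less sensitive, and a missing call does not show a missing effect. Myc had 270 and 210 reads (14.2 and 11.5 CPM) in mDUX libraries A and B and 245 and 245 reads (15.8 and 11.8 CPM) in control libraries A and B. These groups overlap. Its log2 fold change was -0.09 ± 0.19 (SE), with a 95% interval from -0.53 to 0.35. Mycn had 69.7 and 64.3 CPM in mDUX libraries and 77.9 and 78.2 CPM in controls. Its mDUX libraries both lay below the controls, yet the interval of its log2 fold change, from -0.45 to 0.01, reached past 0 (adjusted p = 0.822). Mycl had 26.9 and 25.2 CPM in mDUX libraries and 26.9 and 28.4 CPM in controls, with a log2 fold change of -0.08 ± 0.12. Pvt1 had 523 and 463 reads (27.4 and 25.4 CPM) in mDUX libraries and 381 and 525 reads (24.5 and 25.3 CPM) in controls, with a log2 fold change of 0.08 ± 0.12 and an interval from -0.19 to 0.36. Here and below, adjusted p comes from the quasi-likelihood test of edgeR, adjusted by Benjamini-Hochberg over all genes tested, with a threshold of 0.05. Over all 14979 genes tested, 2.14% were called, 319 higher and 1 lower, and 974 had an unadjusted p under the threshold. DESeq2 called 305 higher and 3 lower, and none of the 4 genes.

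With doxycycline in the unsorted stable line, Pvt1, Mycn and Mycl fell, and Myc was higher from very few reads. Pvt1 fell most. It had 41 and 31 reads (4.64 and 3.01 CPM) in the doxycycline libraries, against 200 and 222 reads (13.1 and 13.3 CPM) without doxycycline. The groups do not overlap, and the fold change was a 3.49-fold decrease (log2 -1.80 ± 0.18, adjusted p = 2.24e-19). Of 16229 genes tested, 127 had a lower log2 fold change than Pvt1. Mycn had 517 and 553 reads (58.5 and 53.7 CPM) with doxycycline and 1117 and 1162 reads (72.9 and 69.5 CPM) without it, a log2 fold change of -0.35 ± 0.07 (adjusted p = 8.35e-06). Mycl had 121 and 143 reads (13.7 and 13.9 CPM) with doxycycline and 340 and 317 reads (22.2 and 19.0 CPM) without it, a log2 fold change of -0.57 ± 0.12 (adjusted p = 7.14e-06). Both doxycycline libraries lay below both others for each of these genes. In this comparison 31.1% of all genes were called lower and 34.0% higher, and 5.87% were called lower with a log2 fold change of -1 or less, as Pvt1 was. In bulk RNA, fewer cells of a type and less RNA per cell cannot be told apart.

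Myc ran the other way from Pvt1 in the unsorted cells. It had 12 and 16 reads (1.36 and 1.56 CPM) with doxycycline, against 7 and 9 reads (0.457 and 0.538 CPM) without it. The groups do not overlap, but all 4 values rest on 16 reads or fewer. Myc entered this test only through the doxycycline libraries, since both uninduced libraries lay below the filter's count of 10. The test is thus tied to the group where Myc was higher. The log2 fold change was 1.53 ± 0.46, with an interval from 0.63 to 2.44 (adjusted p = 0.00195). That call was lost with DESeq2 (adjusted p = 0.067) and without doxycycline library B (adjusted p = 0.0622). The authors' deposited table gives Myc an adjusted p of 0.129 in this comparison.

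In the sorted cells, which had all received doxycycline, the same order was measured at greater depth. Pvt1 had 118 and 91 reads (4.74 and 3.74 CPM) in GFP-positive cells, against 1074 and 944 reads (19.1 and 17.1 CPM) in GFP-negative cells. This was a 4.27-fold decrease (log2 -2.09 ± 0.13, adjusted p = 1.48e-08), and 101 of 16403 genes had a lower log2 fold change. Mycn had 37.0 and 38.7 CPM in GFP-positive cells and 52.5 and 50.8 CPM in GFP-negative ones, a log2 fold change of -0.45 ± 0.07 (adjusted p = 6.27e-05). Mycl had 8.95 and 10.3 CPM in GFP-positive cells and 13.95 and 14.49 CPM in GFP-negative ones, a log2 fold change of -0.56 ± 0.11 (adjusted p = 0.000494). For all of these the GFP-positive libraries lay below the GFP-negative ones. Among all genes, 32.0% were called lower here and 34.3% higher, and 8.27% were called lower with a log2 fold change of -1 or less. Myc had 156 and 188 reads (6.26 and 7.72 CPM) in GFP-positive cells and 375 and 410 reads (6.67 and 7.43 CPM) in GFP-negative cells. These values overlap, and its log2 fold change was -0.01 ± 0.14, with an interval from -0.32 to 0.29 (adjusted p = 0.945). Scaled to all counted reads, repeats included, Myc was instead lower in GFP-positive cells (log2 -0.47, adjusted p = 0.00828). Repeat families took 17.0% to 17.3% of reads in GFP-positive and 4.4% to 4.59% in GFP-negative cells, and the median of all genes moved to -0.46 on that scale.

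**Figure D2:**
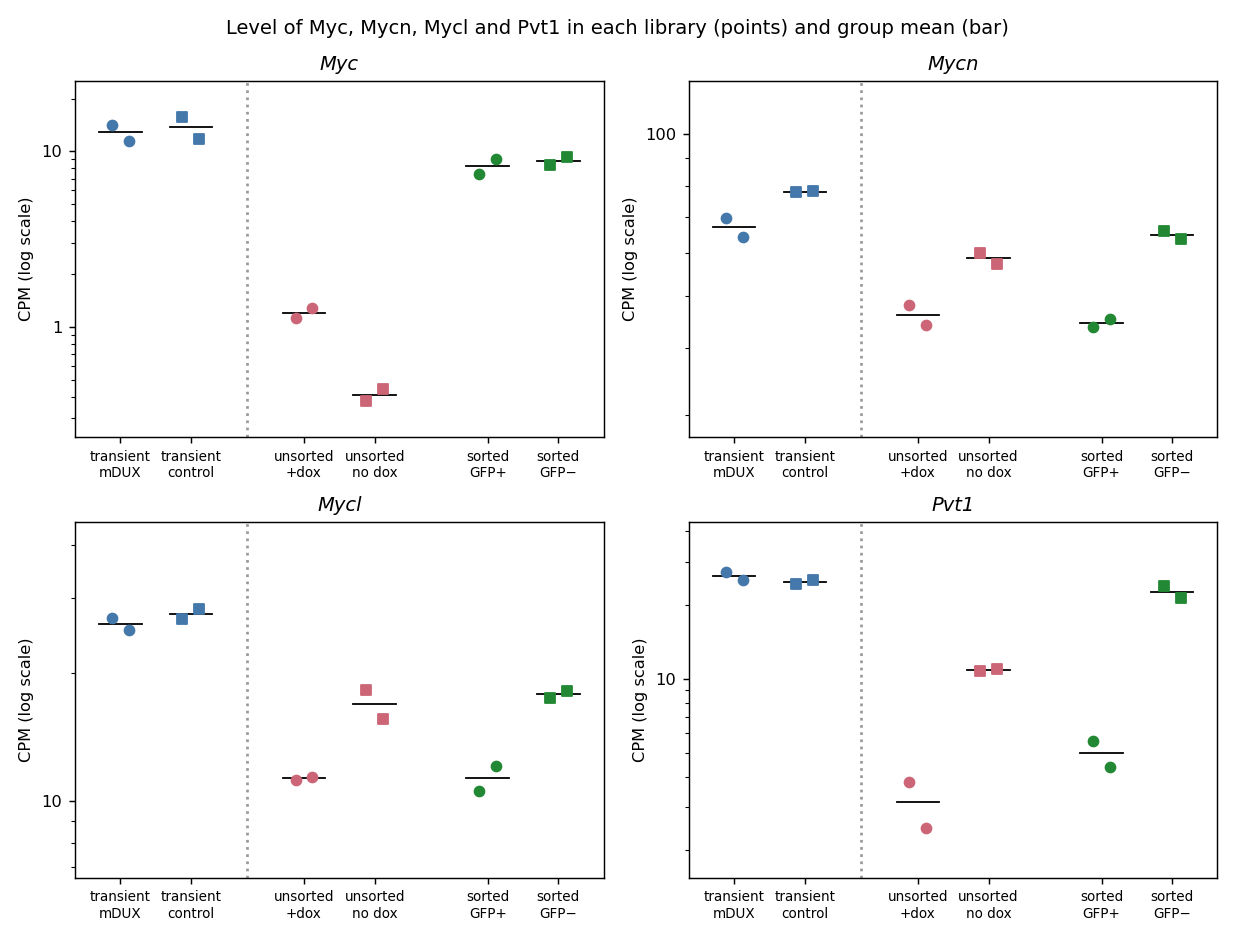
Each panel shows 1 gene, with CPM on a log axis, a point for each library and a bar for the mean of the 2 libraries. Left of the dotted line the scale is that of the transient set, and right of it the joint scale of the 8 stable-line libraries. Pvt1 is lowest with doxycycline and in GFP-positive cells, while Myc is low in both unsorted groups.

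**Figure D3:**
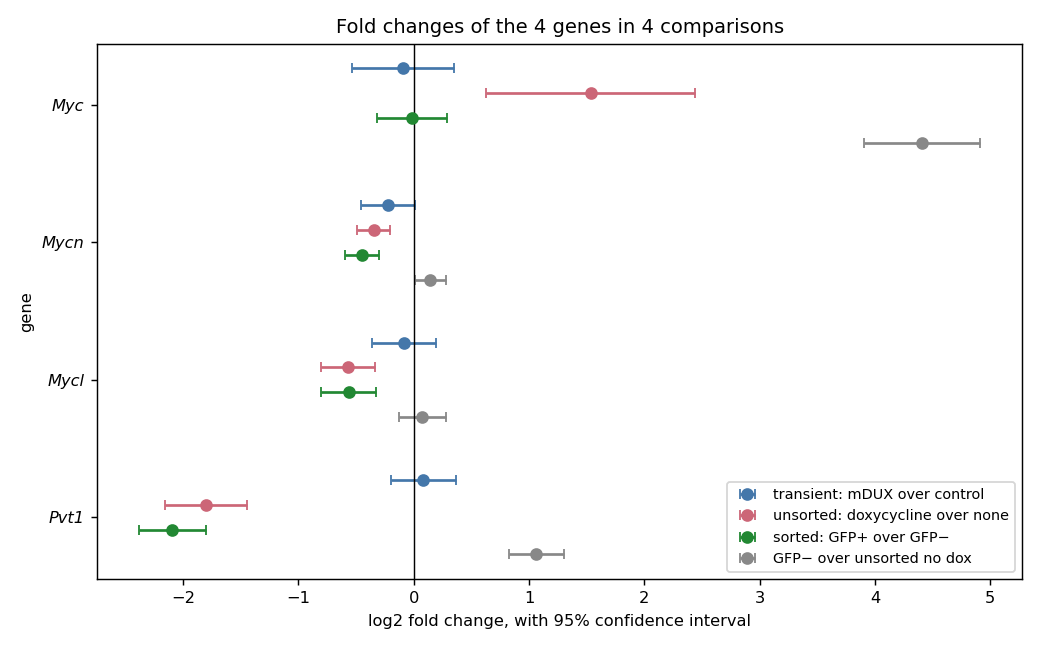
Points are log2 fold changes and bars their 95% intervals, for 4 comparisons of each gene. The Pvt1 intervals lie below 0 with doxycycline and in GFP-positive cells and include 0 with transient mDUX, and the Myc interval for GFP-negative over uninduced cells lies above all others.

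The direction in which Pvt1, Mycn and Mycl differed was the same in the doxycycline and sorted comparisons with TMM, gene totals, all counted reads and DESeq2 size factors. Gene totals moved the median of all genes to -0.22 with doxycycline and to -0.25 in the sorted cells, and all counted reads moved it to -0.58 with doxycycline. The log2 fold change of Pvt1 with doxycycline ran from -1.79 with DESeq2 to -2.38 with all counted reads, and in sorted cells from -2.09 to -2.55. With all counted reads Mycn was at -0.92 and Mycl at -1.15 with doxycycline and at -0.90 and -1.02 in sorted cells, and Myc was at 0.96 with doxycycline. With gene totals the calls over all genes became 4097 higher and 7458 lower with doxycycline and 4052 and 7702 in sorted cells, against 5525 and 5051 and against 5631 and 5252 with TMM. With all counted reads they were 2669 higher and 10529 lower with doxycycline and 3145 and 9573 in sorted cells. Pvt1 and Myc, neighbours on chromosome 15, thus had unequal log2 fold changes in both stable-line comparisons, with no test between the genes. The ratio of Pvt1 to Myc in CPM per kb was 1.17 ± 0.455 with doxycycline and 11.7 ± 1.20 without it, and 0.271 ± 0.0841 in GFP-positive and 1.12 ± 0.177 in GFP-negative cells (SD, n = 2). The unsorted ratios rest on 12 and 16 Myc reads with doxycycline and 7 and 9 without it. Their SD over 2 libraries is a weak measure of the counting noise at such depth. In the transient set it was 0.914 ± 0.0841 with mDUX and 0.817 ± 0.183 in controls.

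Tests of the difference between the effects were made as interaction contrasts. The transient effect minus the doxycycline effect was 2.07 ± 0.22 on the log2 scale for Pvt1 (adjusted p = 1.02e-05), 0.67 ± 0.17 for Mycl (adjusted p = 0.00652) and -1.45 ± 0.48 for Myc (adjusted p = 0.0321). For Mycn it was 0.31 ± 0.12 and did not pass (adjusted p = 0.0669). Of all genes, 22.7% were called with a positive and 14.1% with a negative difference, and the median difference was 0.17. The transient and stable sets also differ in read length, 50 against 125 bp, and in how the transgene was delivered, which cannot be told apart from the difference in effect. The sorted effect minus the doxycycline effect was -1.64 ± 0.46 for Myc (adjusted p = 0.00700), where 20.6% of all genes were called with a negative and 9.87% with a positive difference. That balance was not stable. The median difference over all genes was -0.13, but 0.12 without GFP-positive library A and 0.11 without GFP-positive library B. DESeq2 called 2339 genes with a positive and 1811 with a negative difference. The sorted effect minus the doxycycline effect was -0.38 ± 0.25 for Pvt1 (adjusted p = 0.283), -0.19 ± 0.10 for Mycn (adjusted p = 0.154) and -0.08 ± 0.17 for Mycl (adjusted p = 0.783). The Myc calls in both contrasts rest on the low unsorted counts: the first was lost when mDUX library B or any single unsorted library was left out (adjusted p of at most 0.136), and the second without doxycycline library B (adjusted p = 0.0671). The call for Mycl was lost without uninduced library A (adjusted p = 0.0543) and with DESeq2 (adjusted p = 0.074).

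Sorted and uninduced cells were compared in 1 fit over all 8 libraries of the stable line, with 1 joint CPM scale. On this scale Myc had 8.36 and 9.31 CPM in GFP-negative cells and 0.376 and 0.444 CPM in cells without doxycycline, a 21.2-fold difference (log2 4.41 ± 0.25, adjusted p = 4.55e-16). In GFP-positive cells it had 7.40 and 9.05 CPM, 19.7-fold above the same uninduced cells (log2 4.30 ± 0.26, adjusted p = 2.84e-15), where 45.4% of all genes were called higher. Both comparisons share the uninduced libraries. The doxycycline libraries, which were unsorted as well, had 1.12 and 1.28 CPM of Myc. With gene totals the log2 differences were 3.82 for GFP-negative cells and 3.56 for GFP-positive ones. Myc was thus low in all 4 unsorted libraries with and without doxycycline, and high in all 4 sorted ones, which all had doxycycline. In the GFP-negative comparison 43.6% of all genes were called higher and 34.2% lower, and 25.6% were called higher with a log2 fold change of 1 or more. Of 17820 genes, 157 had a higher fold change than Myc. Sorting, the sequencing of the set and its depth cannot be told apart from this difference, and the mitochondrial and tRNA shares given above moved with it.

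Pvt1 had 23.9 and 21.4 CPM in GFP-negative cells, against 10.75 and 10.95 CPM in uninduced cells on the joint scale (log2 1.06 ± 0.12, adjusted p = 1.46e-09, and 0.47 with gene totals). In GFP-positive cells it had 5.60 and 4.38 CPM, lower than in uninduced cells (log2 -1.12 ± 0.15, adjusted p = 8.28e-08), where 36.6% of all genes were called lower. Pvt1 ordered the stable groups as GFP-negative, uninduced, GFP-positive and doxycycline, from high to low, and the 3.81 and 2.47 CPM of the doxycycline libraries lay below both GFP-positive libraries, a step with no test here. Mycn had 65.9 and 63.7 CPM in GFP-negative and 60.0 and 57.3 CPM in uninduced cells. Its small difference (log2 0.14 ± 0.06, adjusted p = 0.0439) turned to -0.45 with gene totals and to -0.06 with DESeq2, while the median of all genes moved to -0.43 and -0.05 there, against 0.14 with TMM. Mycl had 17.5 and 18.2 CPM in GFP-negative and 18.3 and 15.6 CPM in uninduced cells, which overlap (log2 0.08 ± 0.10, adjusted p = 0.5002, and -0.52 with gene totals). Against the same uninduced cells, GFP-positive cells were lower in Mycn (log2 -0.40 ± 0.07, adjusted p = 7.05e-06) and in Mycl (log2 -0.58 ± 0.11, adjusted p = 3.57e-05). Gene totals put GFP-positive over uninduced cells at -1.87 for Pvt1, -1.15 for Mycn and -1.33 for Mycl, where the median of all genes was -0.60. Doxycycline and GFP-positive libraries overlapped in Mycn, at 48.1 and 44.1 CPM with doxycycline and 43.8 and 45.4 CPM in GFP-positive cells, and likewise in Mycl.

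Likeness of pattern was measured as the Euclidean distance over the 12 libraries between log2(CPM + 0.5) values centred within the transient and the stable set, among 12775 genes. Mycn and Mycl were at 0.335 from each other, Pvt1 at 2.36 from Mycn and 2.22 from Mycl, and Myc at 4.21 to 4.41 from the other members. Nearest to Pvt1 were Kbtbd11 (0.465), Gpa33 (0.513) and Kirrel (0.569). On the joint scale, Kbtbd11 had 18.6 ± 0.750 CPM in GFP-positive cells and 79.7 ± 4.27 CPM in GFP-negative ones, and 15.03 ± 2.41 CPM with doxycycline and 43.3 ± 0.304 CPM without it. Nearest to Mycn were Cep250 (0.258), Ncoa5 (0.266) and Mia3 (0.277), and nearest to Mycl were Wasf2 (0.212), Camkk2 (0.223) and Bri3bp (0.244). Nearest to Myc were Ccne1 (0.648), which encodes cyclin E1, Noc4l (0.699) and Wdr46 (0.712). Ccne1 had 282 ± 5.95 CPM in GFP-positive cells and 295 ± 0.434 CPM in GFP-negative ones, and 54.2 ± 0.836 CPM with doxycycline and 38.2 ± 0.660 CPM without it, so it was also low in both unsorted groups. These genes share libraries and depth with the members. Myc in uninduced cells, at 0.376 and 0.444 CPM, lay below the added 0.5, so its pattern is compressed in this measure. In GFP-negative over uninduced cells Myc differed 21.2-fold and Ccne1 7.72-fold.

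Among partners of the MYC proteins, genes of the MAX network were called in the stable line and none in the transient set. With doxycycline 2 of its 10 genes rose and 5 fell, at a median log2 fold change of -0.29, against 0.00 over all genes, of which 34.0% were called higher and 31.1% lower. In GFP-positive cells 4 rose and 5 fell, with a median of -0.14, where 34.3% of all genes were called higher and 32.0% lower. Max itself, the shared partner, had 79.4 ± 2.85 CPM with doxycycline and 127 ± 4.57 CPM without it on the joint scale (SD, n = 2). It had 40.5 ± 0.731 CPM in GFP-positive cells and 74.95 ± 0.613 CPM in GFP-negative ones. Its log2 fold changes, from the separate doxycycline and sorted fits with their own scales, were -0.68 ± 0.06 and -0.80 ± 0.07. Mga, a MAX partner that is also a subunit of a Polycomb complex, fell by 1.08 on the log2 scale with doxycycline and by 1.21 in GFP-positive cells. Mxi1 fell by 0.75 and 0.87 and Mnt by 0.56 and 0.28, both being antagonists of MYC. Mlxip and Mlxipl, partners of MLX that act in glucose sensing, rose 4.01-fold and 3.54-fold with doxycycline and 2.04-fold and 3.01-fold in GFP-positive cells. Mxd4 had a log2 fold change of 1.36 ± 0.17 and Mxd1 of 0.91 ± 0.13 in GFP-positive cells, and neither passed with doxycycline (0.00 ± 0.16 for Mxd4 and -0.15 ± 0.12 for Mxd1). Whether these differ between the comparisons was not tested for single partners. With gene totals the split became 2 higher and 7 lower with doxycycline, and 4 and 6 in GFP-positive cells. All genes then gave 4097 higher and 7458 lower with doxycycline, and 4052 and 7702 in GFP-positive cells. With all counted reads the split was 2 and 8, and 4 and 6, where all genes gave 2669 and 10529, and 3145 and 9573. Of the other MYC relatives, Bmyc had 26 to 138 reads in each library and passed in none of the comparisons as fitted. In GFP-positive over GFP-negative cells its log2 fold change was -0.41 ± 0.22, and it was called lower there with gene totals, all counted reads, the joint fit or without GFP-positive library B. Mycs had 0 to 2 reads.

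**Figure D4:**
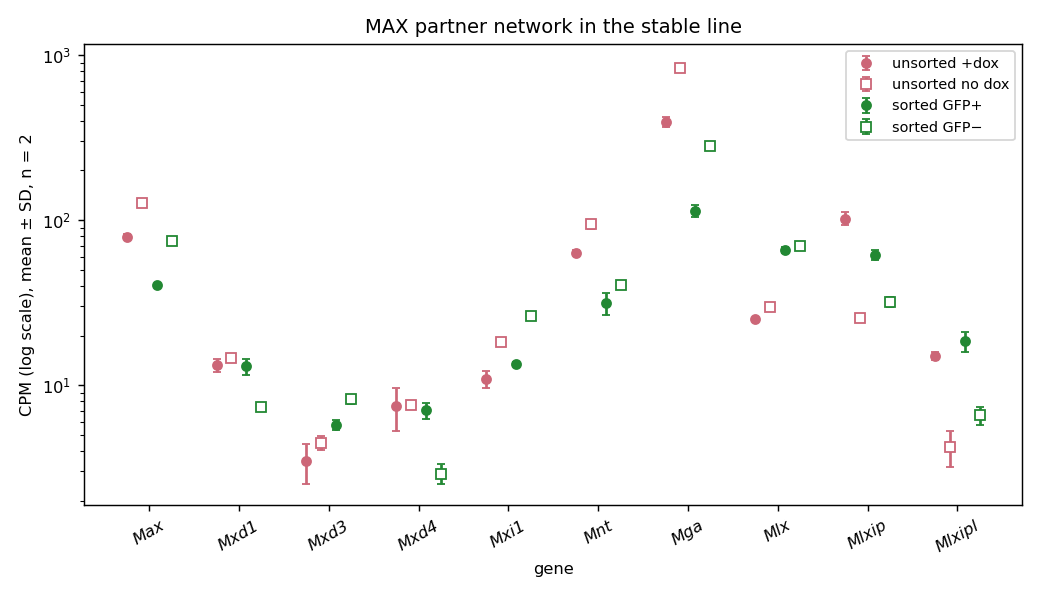
Points are mean CPM on a log axis with the SD of 2 libraries, for 10 genes of the MAX network in the 4 stable-line groups on their joint scale. Max, Mga, Mxi1 and Mnt are lower with doxycycline and in GFP-positive cells, and Mlxip and Mlxipl are higher.

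For genes of proteins that act on MYC, the shares of all genes called stand beside the counts, being 34.0% higher and 31.1% lower with doxycycline and 34.3% higher and 32.0% lower in GFP-positive cells. Of 14 cofactor genes, 6 rose and 3 fell with doxycycline, and 5 rose and 6 fell in GFP-positive cells, which became 4 and 7 with doxycycline and 3 and 9 in GFP-positive cells when scaled to gene totals, and 2 and 11 and 1 and 9 when scaled to all counted reads. Cdk9, the kinase of transcription elongation, rose 2.17-fold with doxycycline and 1.45-fold in GFP-positive cells, and Zbtb17, which encodes the MYC partner MIZ1, rose 1.86-fold with doxycycline. Wdr5, which recruits MYC to chromatin, fell by 0.34 and 0.74 on the log2 scale. Of 13 genes of MYC protein turnover, 7 rose and 3 fell with doxycycline and 6 rose and 4 fell in GFP-positive cells, while with gene totals 4 rose and 5 fell with doxycycline and 4 rose and 7 fell in GFP-positive cells. All counted reads gave 2 higher and 9 lower with doxycycline and 3 and 7 in GFP-positive cells. Among all genes, gene totals gave 4097 higher and 7458 lower with doxycycline, and 4052 and 7702 in GFP-positive cells. All counted reads gave 2669 and 10529 of all genes with doxycycline, and 3145 and 9573 in GFP-positive cells. Trim32, a ubiquitin ligase, rose 2.29-fold and 2.12-fold, and Aurka, the kinase known to stabilise MYCN protein, rose 1.93-fold with doxycycline.

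The target lists hold genes widely used as readouts of MYC activity. Of 56 MYC-activated targets, 17 rose and 26 fell with doxycycline (median log2 fold change -0.08), and 15 rose and 24 fell in GFP-positive cells (median -0.10), beside medians of all genes of 0.00. Among all genes 34.0% were called higher and 31.1% lower with doxycycline, and 34.3% and 32.0% in GFP-positive cells. With gene totals the split was 8 higher and 35 lower with doxycycline, and 7 and 42 in GFP-positive cells. All genes then gave 4097 higher and 7458 lower of 16229 with doxycycline, and 4052 and 7702 of 16403 in GFP-positive cells. With all counted reads the split was 5 and 48 with doxycycline and 2 and 48 in GFP-positive cells. On that scale all genes gave 2669 and 10529 of 16262 with doxycycline, and 3145 and 9573 of 16350 in GFP-positive cells. Tfap4, a helix-loop-helix factor, fell by 1.31 and 1.67 on the log2 scale, Prdx3, a mitochondrial peroxidase, fell by 1.38 with doxycycline, and Tert, the telomerase subunit, fell by 1.21 in GFP-positive cells. Ccnd2, encoding cyclin D2, rose 5.54-fold and 5.32-fold. Shmt2, of serine and folate metabolism, rose 1.89-fold with doxycycline, and Impdh2, of guanine nucleotide synthesis, 1.63-fold in GFP-positive cells. Of 14 MYC-repressed targets, 11 rose and 2 fell with doxycycline (median 0.62), and 8 rose and 2 fell in GFP-positive cells (median 0.49), beside the same shares of all genes, 34.0% and 31.1% with doxycycline and 34.3% and 32.0% in GFP-positive cells. With all counted reads these became 6 and 3 with doxycycline and 7 and 6 in GFP-positive cells, and gene totals gave 7 and 6 in GFP-positive cells too. The cell cycle inhibitor Cdkn1c rose 5.84-fold and 8.14-fold, Txnip rose 2.66-fold with doxycycline and Cdkn2c 3.16-fold in GFP-positive cells. Cdkn1a, encoding p21, fell by 0.32 and 0.46 on the log2 scale, and Tgfbr2 fell by 2.42 in GFP-positive cells.

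In GFP-negative cells set against uninduced cells, 52 of the 56 activated targets were called higher and 2 lower. Their median log2 fold change was 1.64, beside 0.14 over all genes, of which 43.6% were called higher and 34.2% lower. Of the 14 repressed targets 2 were called higher and 8 lower (median -0.46), beside the same shares. Whether the lists differ between this and the other comparisons was not tested. With gene totals 46 activated targets were higher and 6 lower, and 1 repressed target was higher and 10 lower, beside 5069 higher and 9117 lower among all genes. Fbl, a nucleolar RNA methyltransferase, was 13.1-fold higher and Odc1, the first enzyme of polyamine synthesis, 12.3-fold higher, while Rrs1 (log2 -0.56 ± 0.06) and Eif4a1 (log2 -0.12 ± 0.05) were lower. Of the repressed targets, Gadd45a was 2.23-fold and Cdkn2b 1.88-fold higher, and Ndrg1 (log2 -1.72 ± 0.10) and Cdkn1b (log2 -1.17 ± 0.08), which encodes the cell cycle inhibitor p27, were lower. Of the 14 cofactors, TMM scaling gave 12 higher and 1 lower and gene totals 10 and 3, with Ruvbl2 18.0-fold and Actl6a 11.7-fold higher and Ccnt1 lower (log2 -0.97 ± 0.05). The activated list had a median length of 2836 bases, against 2879 over all genes tested. With all genes grouped by length, the median log2 fold change was -0.49 in the shortest group and 0.25 to 0.33 in the longer ones. The part of length in the list difference was not tested. In GFP-positive over the same uninduced cells, Fbl was 10.4-fold, Odc1 12.4-fold, Ruvbl2 14.3-fold and Actl6a 11.4-fold higher. Tert (log2 -1.23 ± 0.13), Rrs1 (log2 -0.36 ± 0.06) and Ccnt1 (log2 -0.46 ± 0.05) were lower there. Among all genes, 45.4% were called higher and 36.6% lower in that comparison. High Fbl, Odc1, Ruvbl2 and Actl6a were thus not particular to GFP-negative cells. Counts of the whole lists are not given for GFP-positive over uninduced cells. The list differences are therefore not shown to be particular to GFP-negative cells either. Both comparisons set sorted against unsorted libraries, so the limits given for Myc hold here too.

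**Figure D5:**
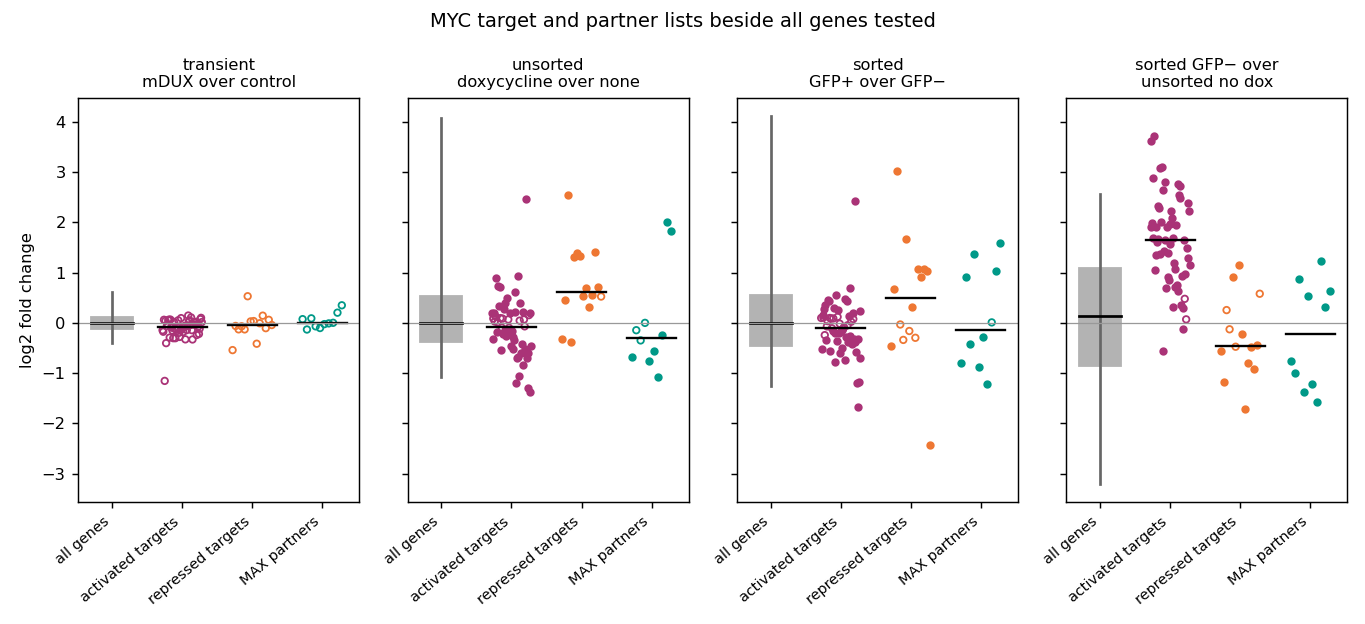
Grey boxes show the middle 50% of all genes tested with the median, and grey lines reach from the 5th to the 95th percentile. Each point is 1 listed gene, filled where the adjusted p was under 0.05, and black bars are list medians. The MYC-activated targets lie near 0 in the first 3 panels and at a median of 1.64 in GFP-negative over uninduced cells.

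In the transient comparison no gene of the MAX (10 tested), cofactor (14), turnover (13), activated (56), repressed (14) or upstream (15) lists was called, beside 2.14% of all genes. The activated list had a median log2 fold change of -0.08, against 0.00 over all genes. These counts depended on control library B: without it, genes of the activated, cofactor and turnover lists were called, and so were many more of all genes. That fit has only control library A as its control, so its list counts are not given. The ribosomal RNA repeats took 2.35% of the reads of control library A and at most 0.0767% of each other transient library. Their part in the dependence on control library B was not tested.

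A list of genes placed upstream of Myc in stem cells was counted in the same way. Of 14 tested with doxycycline 4 rose and 6 fell, where 34.0% of all genes were called higher and 31.1% lower, and of 15 tested in GFP-positive cells 4 rose and 9 fell (median log2 fold change -0.53), where 34.3% of all genes were called higher and 32.0% lower. Il6st, which encodes the gp130 receptor subunit for LIF, fell by 1.55 and 1.87 on the log2 scale, and the WNT target Cdx1 fell by 1.32 and 1.29. Axin2, another WNT target and an inhibitor of the pathway, rose 5.10-fold and 3.49-fold. Tcf7l2, a WNT effector, rose 2.37-fold with doxycycline, and Jak1, a kinase of the LIF receptor, rose 1.63-fold in GFP-positive cells. In GFP-negative over uninduced cells 8 of 15 were higher and 5 lower, beside 43.6% and 34.2% of all genes, with Stat3 2.83-fold and Sp5 2.45-fold higher, and Pim1 (log2 -1.38 ± 0.06) and Axin2 (log2 -0.89 ± 0.08) lower. With gene totals these splits were 4 and 9 with doxycycline, 3 and 10 in GFP-positive cells and 5 and 7 in GFP-negative over uninduced cells. All genes then gave 4097 higher and 7458 lower, 4052 and 7702, and 5069 and 9117, in the same order. With all counted reads the splits were 3 and 10 with doxycycline and 2 and 11 in GFP-positive cells. There all genes gave 2669 and 10529, and 3145 and 9573.

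Few genes around the members could be tested. Within 1 Mb of Myc and Pvt1, 21 other genes were annotated, 2 were in the tables and none had enough reads for the test in any comparison. Around Mycn 10 genes were in the tables, and of 7 tested, 3 rose and 1 fell with doxycycline, where 34.0% of all genes were called higher and 31.1% lower. In GFP-positive cells 2 of the 7 rose and 1 fell, where 34.3% of all genes were called higher and 32.0% lower. The lincRNA gene 4930519A11Rik, 28715 bp from Mycn, had 113 and 133 reads with doxycycline and 1 and 0 reads without it. It had 78 and 81 reads in GFP-positive and 2 and 6 in GFP-negative cells. This gene passed the filter only through the groups where it was high, so its p-values are not given. Its reads ran against Mycn, which fell in both comparisons. Around Mycl 46 genes were in the tables. Of 20 tested with doxycycline 6 rose and 3 fell, and of 21 tested in sorted cells 7 rose and 7 fell, beside the same shares of all genes. On the joint scale Trit1, 14112 bp from Mycl, had 24.7 ± 1.53 CPM with doxycycline and 14.9 ± 0.149 CPM without it. In the separate fits Trit1 passed with doxycycline (adjusted p = 1.79e-11) and did not pass in sorted cells (adjusted p = 0.0895). Mfsd2a, 34464 bp away, had 91 and 77 reads in GFP-positive and 29 and 12 reads in GFP-negative cells. It too needed the GFP-positive libraries to pass the filter, so its p-value is not given. It had at most 8 reads in an unsorted library and was not tested with doxycycline. Farther from Mycl, Rhbdl2 (log2 2.21 ± 0.43) and Gm12922 (log2 1.06 ± 0.28) also rose in sorted cells. Bmp8a (log2 -1.13 ± 0.23) and Oxct2a (log2 -1.38 ± 0.43) fell there, as Mycl did.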

How the data were processed

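Poly(A) RNA was sequenced from stranded libraries, as the labels' protocols state. The authors deposited 3 tables of raw counts per gene and repeat family, per the file headers. The same tables hold log2 fold changes of the authors, per the file headers. They also hold the authors' adjusted p-values, of which 1 is quoted. The tables also give a feature length. Novoalign 2.8, DESeq2 and mm10 are named, with no role, per the submitters' processing notes. No source used here gives the counting tool, its annotation, its strand setting or how it treated reads with several matches.

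Counts were tested in R 4.3.3 with edgeR 4.0.16 (glmQLFit, robust, and glmQLFTest), after filterByExpr (count of at least 10, total of at least 15). Library sizes and TMM factors came from genes alone, and genes and repeat families were fitted together. P-values were adjusted by Benjamini-Hochberg over genes, with a threshold of 0.05. Main comparisons were each fitted on 4 libraries; sorted against uninduced cells, and differences between effects, on 8. All 4 genes passed the filter in every comparison, but Myc passed in the unsorted fit only through the doxycycline libraries, where it was higher. The SE of a log2 fold change is its absolute value over the square root of F, and 95% intervals use the fit's degrees of freedom. Standard deviations cover 2 libraries. The code was tested on simulated data.

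Columns count libraries from 0 and titles from 1, so columns were tied to groups, and libraries are called A and B. Libraries of a group differed by more than sampling noise (chi-square per degree of freedom 1.81 to 30.6, highest in the transient controls), so none was counted as a duplicate. The members and gene lists were chosen with earlier results of these data known. From each list, the 2 genes with the highest and the 2 with the lowest fold change among those called could be named per main comparison, any gene of the MAX network, and neighbours within 1 Mb that lie next to a member or have a log2 fold change of 1 or more in size. Not every such gene is named. In GFP-negative over uninduced cells, which the rule did not cover, the names come from the same extremes and were chosen after values were seen. Alternatives were gene totals, all counted reads, DESeq2 1.42.0, other filters (none, or 1 CPM in 2 libraries), genes fitted alone, a replicate block, a joint fit and leaving out each library.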

Additional observations from a re-analysis of the deposited data

Results flagged for a closer look

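For 4 results the effect differed between comparisons by a test of the difference itself, each on the log2 scale. The transient effect of mDUX minus the doxycycline effect was 2.07 for Pvt1, 0.674 for Mycl and -1.45 for Myc. Pvt1 had a log2 fold change of 0.08 with transient mDUX and -1.80 with doxycycline, Mycl -0.08 and -0.57, and Myc -0.09 and 1.53. The sorted effect minus the doxycycline effect was -1.64 for Myc, which had -0.01 in GFP-positive over GFP-negative cells and 1.53 with doxycycline over none. The differences of Myc rest on 12 and 16 reads with doxycycline and 7 and 9 without it. Summed markers of 2-cell-like cells took at most 0.11% of gene reads with transient mDUX, against at least 1.11% with doxycycline, and their part in the differences was not tested.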

How the results depend on the processing

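Of 192 values under settings other than leaving out a library, over 36 results, 173 kept their direction and their side of the threshold, or a count within 1.5 times. The exceptions follow, and the cause was not tested. With DESeq2, the doxycycline fold change of Myc was 1.56 (adjusted p = 0.067), GFP-negative over uninduced cells gave -0.062 for Mycn and -0.13 for Mycl, and the differences for Mycl were 0.53 (transient minus doxycycline, adjusted p = 0.074) and 0.071 (sorted minus doxycycline). Gene totals gave -0.45 for Mycn and -0.52 for Mycl in GFP-negative over uninduced cells, 0.37 for the transient minus doxycycline difference of Mycn (adjusted p = 0.0337), and 5069 genes higher, against 7768, in GFP-negative over uninduced cells. In sorted cells Myc was -0.47 (adjusted p = 0.00828) with all counted reads and 0.0096 with the 1 CPM filter. All counted reads gave 2669 genes higher and 10529 lower with doxycycline, and 3145 and 9573 in sorted cells. Genes lower with transient mDUX numbered 3 with DESeq2, 40 with the replicate block and 91 without a filter, against 1. The replicate block took the Mycn difference in GFP-negative over uninduced cells to 0.14 (adjusted p = 0.0544) and changed no other member's call. The labels do not say that library numbers pair samples, and deviations of same-numbered libraries correlated at -0.316, -0.0989 and -0.127 in the transient, unsorted and sorted sets.

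Of 176 values with 1 library left out, 147 kept direction and side. The log2 ranges of those that did not were -0.31 to 0.12 for Myc with transient mDUX, 1.42 to 1.65 for Myc with doxycycline, -0.18 to 0.14 for Myc in sorted cells and 0.12 to 0.21 for Mycn in GFP-negative over uninduced cells. For transient minus doxycycline they were -1.64 to -1.26 for Myc, 0.22 to 0.34 for Mycn and 0.54 to 0.77 for Mycl. For sorted minus doxycycline they were -1.77 to -1.24 for Myc, -0.26 to 0.10 for Mycn, -0.20 to 0.28 for Mycl and -0.69 to 0.028 for Pvt1. Transient mDUX gave 247 to 1185 genes higher and 0 to 1404 lower, with 1185 and 1404 without control library B and 522 and 92 without control library A. Depth limits Myc most, at 7 to 16 reads in each unsorted library.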
